A study of Homo sapiens with 30 samples.

Results

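The genes described are the NR4A and EGR immediate early transcription factors NR4A1, NR4A2, NR4A3, EGR1, EGR2 and EGR3. A probe set was taken where the platform annotation paired it with 1 of these symbols alone, which gave 12 of the 22277 probe sets and 5 of the 6 genes. NR4A1, NR4A2 and NR4A3 had 3 probe sets each, EGR1 had 2 and EGR3 had 1. EGR2 had no probe set paired with it alone in the annotation used and was not analysed here. A member probe set passed the filter on low values if it lay above the 25th percentile of its array on at least 3 arrays, and 11 of the 12 did. The study asked how THP-1 cells, a human line from an acute monocytic leukaemia, respond to 2 engineered nanomaterials. Every group, the controls included, had first been made adherent and macrophage-like with 82 nM of the phorbol ester PMA over 24 h, then washed, scraped off and plated again. Cells then received multi-walled carbon nanotubes (MWCNT) at 10 or 100 µg/ml, titanium dioxide nanobelts (TiO2-NB) at 10 or 100 µg/ml, or no particles, each for 24 h and for 1 h. Each of these 10 groups had 3 arrays from numbered biological replicates of this 1 cell line, and RNA came from the cells still attached at the end.

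NR4A1, NR4A2 and NR4A3 are orphan nuclear receptors, and EGR1 and EGR3 are zinc finger factors that bind GC-rich DNA. All are immediate early genes: existing factors such as the serum response factor with its ETS partners, CREB, MEF2 and NF-kappaB switch them on within minutes, without new protein, and their transcripts usually decay quickly. The NR4A receptors need no known ligand for their activity, so that their amount largely sets it. In macrophages NR4A receptors are known to restrain NF-kappaB target genes, and EGR1 is a known target of PMA signalling through protein kinase C and MAP kinases.

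The promoters of NR4A3 and EGR1 are printed because NR4A3 had the smallest adjusted p of the members with TiO2-NB at 24 h, while EGR1 did not pass the test there. Each stretch runs from 250 bases before to 50 bases after a RefSeq transcript start in GRCh38.p14, on the plus strand, at chr9:99821635-99821934 for NR4A3 and at chr5:138465229-138465528 for EGR1. In NR4A3 capitals mark TGACG, the core of the CREB binding site, on either strand. In EGR1 capitals mark the same core, the CArG box bound by the serum response factor, and GCGNGGGCG, the EGR site.
NR4A3 promoter: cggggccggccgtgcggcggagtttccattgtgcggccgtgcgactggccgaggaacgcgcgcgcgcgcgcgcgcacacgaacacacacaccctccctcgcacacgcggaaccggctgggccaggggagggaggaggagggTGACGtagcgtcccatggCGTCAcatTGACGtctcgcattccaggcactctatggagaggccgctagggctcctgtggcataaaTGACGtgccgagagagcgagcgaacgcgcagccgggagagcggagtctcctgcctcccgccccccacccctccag
EGR1 promoter: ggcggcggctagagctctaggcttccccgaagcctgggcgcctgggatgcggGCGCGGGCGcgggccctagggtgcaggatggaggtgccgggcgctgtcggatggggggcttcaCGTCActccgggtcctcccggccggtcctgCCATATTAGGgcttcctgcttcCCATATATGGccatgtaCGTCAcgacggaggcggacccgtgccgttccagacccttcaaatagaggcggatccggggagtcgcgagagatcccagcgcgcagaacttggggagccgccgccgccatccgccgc

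The NR4A3 stretch held 4 copies of the TGACG core, at 109 to 105, 91 to 87, 83 to 79 and 25 to 21 bases before the start, the second of them on the reverse strand. At least 1 copy was present in 24.6% of 35116 RefSeq promoters of the same length, and at least 4 copies in 110 of them, or 0.313%. The EGR1 stretch held 2 cores on the reverse strand, 2 CArG boxes at 105 to 96 and 83 to 74 bases before the start, and 1 EGR site at 198 to 190 bases before it. A CArG box was present in 1.29% of the promoters and at least 2 in 11 of them, or 0.0313%. An EGR site was present in 9.43%. Neither stretch held the full CREB site TGACGTCA (1.85% of promoters), the AP-1 site TGANTCA (7.71%), the NR4A monomer site AAAGGTCA (1.22%) or the NF-kappaB site by its usual consensus (11.3%). Both strands were searched, and the full CREB site contains the TGACG core. The stretches of 2 NR4A1 starts held none of the 7 motifs. The RefSeq table held promoters of 4 of the 6 genes, namely these 3 and EGR2, which had no values here. These matches describe the letters in the window only.

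Deposited values were log2 RMA intensities, which can be set side by side between arrays for 1 probe set but not between probe sets. Errors of levels are SDs over n = 3 arrays, and errors of differences are standard errors from limma. Each gene was tested through its kept probe set of highest mean level, and 10050 genes entered 1 fit of all arrays. Of 10 measured macrophage and monocyte markers, 9 lay above the array median on all 30 arrays, CD14, ITGAM, CSF1R and SPI1 among them, and 1 lay below it on all. Of 7 lymphocyte markers 0 lay above it on every array, of 7 epithelial markers 1 (MUC1) and of 6 fibroblast markers 1 (COL1A1). Arrays correlated at 0.979 or more with each other and at 0.994 or more within a group.

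After 24 h with 100 µg/ml TiO2-NB, the transcripts of all 3 NR4A receptors and of EGR3 were higher than in control cells, while those of EGR1 did not pass the test. NR4A3 was 4.76-fold, EGR3 2.33-fold and NR4A1 1.33-fold the control level. NR4A2 was 4.13-fold by 1 probe set, with its dim control values raised to the 25th percentile of their arrays. For NR4A1 the call rests on 1 of its 3 probe sets: 210226_at differed by 0.00 ± 0.09 and 211143_x_at by 0.12 ± 0.08, and neither passed. That is 4 of 5 measured members called at an adjusted p under 0.05, all 4 higher, against 22.1% of all 10050 genes called in either direction and 10.9% called higher. This count and the later ones include NR4A2, whose probe set passed the filter only through groups where it was high. In these bulk samples, more cells carrying a transcript and more of it per cell cannot be told apart.

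NR4A3, the receptor whose fusion with EWSR1 defines a soft tissue sarcoma, had levels of 8.24, 8.22 and 8.31 with 100 µg/ml TiO2-NB at 24 h, against 5.97, 5.88 and 6.16 in the control cells. The 3 exposed arrays lay close together and above every control array. The difference was 2.25 ± 0.26 (limma, adjusted p = 7.02e-07).
NR4A2, best known for the development of dopamine neurons, had levels of 6.91, 6.73 and 7.05 with TiO2-NB, against 4.42, 4.13 and 4.33 in control cells. The groups did not overlap, and the fitted difference was 2.60 ± 0.47 (limma, adjusted p = 0.000236). In all 24 h groups but that with 100 µg/ml TiO2-NB, this probe set lay below the 25th percentile of its array on every array. That percentile was 4.77 to 4.91, and the files used here give no detection call. With each control value raised to the percentile of its array, the control mean was 4.85 in place of 4.30, and the level with TiO2-NB was 4.13-fold as high. This value carries no error and holds for 1 probe set, 204622_x_at. Another one, 204621_s_at, differed less, with means of 6.06 with TiO2-NB and 4.11 in control cells. Probe set 204622_x_at passed the filter through the 15 arrays at 1 h and the 3 TiO2-NB arrays at 100 µg/ml and 24 h, 18 of 30 in all, and so only through groups where it was high.
NR4A1, the member induced by growth factors and T cell receptor signals, had levels of 7.09, 7.31 and 7.13 with TiO2-NB, against 6.79, 6.68 and 6.82 in control cells. All 3 exposed arrays lay above the controls, by a small amount. The difference was 0.41 ± 0.07 (limma, adjusted p = 9.77e-05).

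EGR3, a member known from T cell tolerance and muscle spindle development, had levels of 7.06, 7.13 and 7.25 with 100 µg/ml TiO2-NB at 24 h, against 5.88, 6.10 and 5.81 in control cells. The groups did not overlap, and the difference was 1.22 ± 0.35 (limma, adjusted p = 0.0131). EGR1, the family member most often studied in monocyte differentiation, had levels of 11.45, 11.78 and 11.81 with TiO2-NB, against 11.71, 11.77 and 11.41 in control cells. Here the groups overlapped throughout, the difference was 0.05 ± 0.27 (limma, adjusted p = 0.923), and its 95% interval ran from -0.52 to 0.62. The error of these differences comes from all 30 arrays, and the 1 h groups spread more. In a fit of the 24 h arrays alone the standard error was 0.14 for NR4A2, 0.20 for NR4A3, 0.12 for EGR3 and 0.12 for EGR1. The limma adjusted p there was 1.03e-07 for NR4A2, 3.69e-06 for NR4A3 and 1.04e-05 for EGR3, and 0.82 for EGR1.

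Markers of the cells themselves moved in the same comparison. The mean level of the 10 macrophage and monocyte markers was 9.54 to 9.60 on the TiO2-NB arrays at 100 µg/ml and 24 h, against 9.86 to 9.93 on the control arrays. Of these markers 4 were called lower and 0 higher, and of 4 tested fibroblast markers 1 was called higher. None of 6 tested lymphocyte and 4 tested epithelial markers was called by limma. The part of these shifts in the NR4A and EGR values was not tested.

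**Figure D1:**
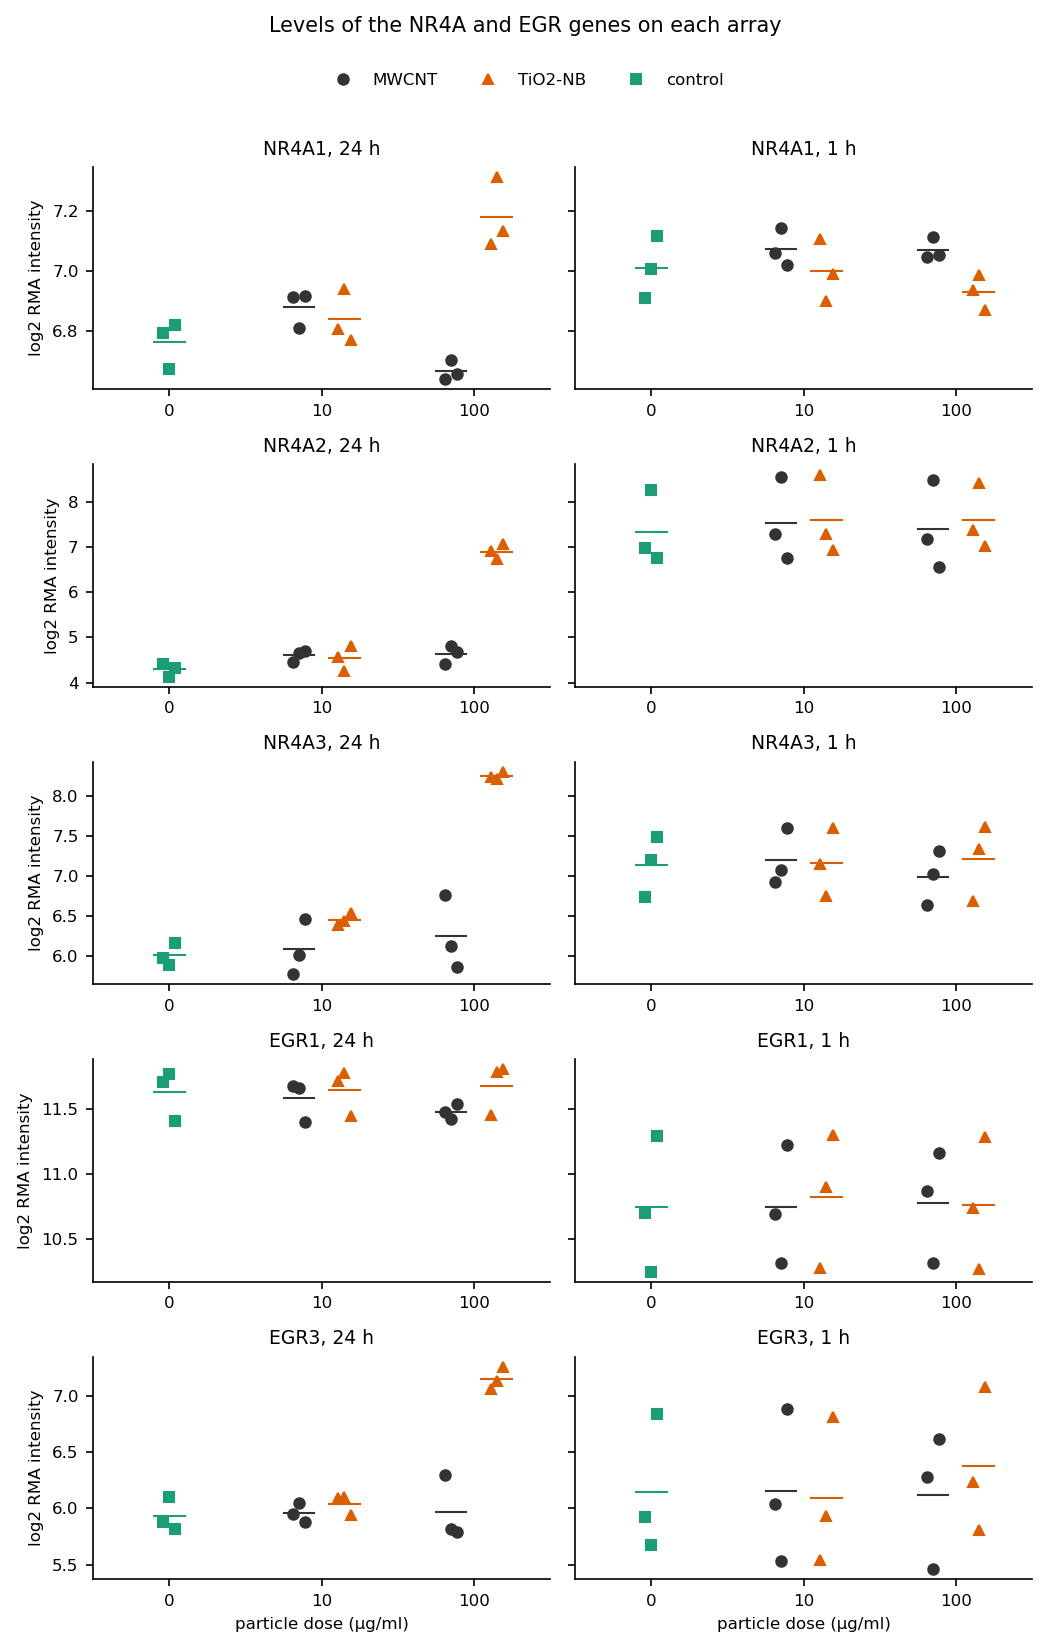
Log2 RMA intensity of the probe set that stood for each gene (vertical axis, its own range for each gene) on each of the 30 arrays, by particle dose in µg/ml, at 24 h on the left and 1 h on the right. Points are arrays and short lines are means of 3 arrays. NR4A2, NR4A3 and EGR3 at 24 h stand high with 100 µg/ml TiO2-NB alone, and the 1 h panels show similar means, with wide groups in all genes but NR4A1.

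With 100 µg/ml MWCNT at 24 h, 0 of the 5 members was called by limma, and 0 had an unadjusted p under 0.05, although 13% of all genes were called. NR4A3 had levels of 6.76, 6.12 and 5.85 with MWCNT, against 5.97, 5.88 and 6.16 in control cells, a difference of 0.24 ± 0.26 with a 95% interval of -0.29 to 0.77. NR4A2 had 4.42, 4.81 and 4.67 with MWCNT, against 4.42, 4.13 and 4.33 in control cells, both of them dim groups, with a fitted difference of 0.34 ± 0.47 and an interval of -0.64 to 1.31. Before rounding these arrays did not overlap, as in 30% of all genes. Its probe sets 204621_s_at (means of 4.72 against 4.11) and 216248_s_at (4.47 against 4.05) also had higher means with MWCNT. The error comes from all 30 arrays, and the 1 h groups spread more. Over 20 alternatives the lowest adjusted p of NR4A2 was 0.116 by limma, and 0 members were called in any. The differences were -0.10 ± 0.07 for NR4A1, -0.15 ± 0.27 for EGR1 and 0.04 ± 0.35 for EGR3. Replicate 1 of this MWCNT group was its highest array in both NR4A3 and EGR3 (6.29, against 5.82 and 5.80 on the others).

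At 10 µg/ml neither material moved a member past the threshold at 24 h. With MWCNT 0 of 5 members and 0% of all genes were called by limma, and with TiO2-NB 0 of 5 members and 0.0199% of all genes, with 0 members at an unadjusted p under 0.05 in both. At unadjusted p under 0.05 there were 421 genes with MWCNT and 474 with TiO2-NB. The widest member difference from control at this dose was that of NR4A3 with TiO2-NB. Its levels were 6.38, 6.44 and 6.54 with 10 µg/ml TiO2-NB, against 5.97, 5.88 and 6.16 in control cells. These arrays did not overlap, but the difference of 0.45 ± 0.26 had an adjusted p of 0.999 by limma.

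The dose comparison within TiO2-NB at 24 h set 100 against 10 µg/ml, and 4 of 5 members were called, all higher, against 13.5% of all genes called and 7.38% called higher. NR4A2 was 4.10-fold as high at 100 µg/ml by 1 probe set, with its dim values raised as above (fitted difference 2.34 ± 0.47, limma, adjusted p = 0.00132). NR4A3 differed by 1.80 ± 0.26 (3.17e-05), NR4A1 by 0.34 ± 0.07 (0.00156) and EGR3 by 1.11 ± 0.35 (0.036). EGR1 differed by 0.03 ± 0.27. EGR3 had levels of 7.06, 7.13 and 7.25 at 100 µg/ml, against 6.09, 6.10 and 5.94 at 10 µg/ml. These arrays did not overlap. The call of EGR3 was lost when any 1 of the 6 arrays compared was left out, with adjusted p from 0.0661 to 0.101. The other 14 alternatives kept it, with a lowest adjusted p of 4.61e-05 by limma. The error in the leave-out fits comes from arrays of both times, and EGR3 groups at 1 h had SDs of 0.59 to 0.68. The part of that spread in the lost calls was not tested. The call of NR4A1 was lost with the mean of its probe sets (0.10, adjusted p = 0.367) and in a fit of the groups compared alone (adjusted p = 0.0616). Within MWCNT at 24 h, 0 of 5 members and 4.67% of all genes were called. NR4A1 alone had an unadjusted p under 0.05 there, with 6.64, 6.71 and 6.66 at 100 µg/ml, against 6.91, 6.81 and 6.92 at 10 µg/ml, a difference of -0.21 ± 0.07 (limma, adjusted p = 0.0818).

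The materials were also set against each other directly. At 100 µg/ml and 24 h, the test called 4 of 5 members, all lower with MWCNT, against 24.9% of all genes called and 10.9% called lower. NR4A2 was dim with MWCNT. With these values raised as above, its level with TiO2-NB was 4.29-fold as high by 1 probe set (fitted difference -2.26 ± 0.47, limma, adjusted p = 0.00123). Raised values follow the percentile of each array, so such folds cannot order the dim groups. The measured means of NR4A2 were 4.63 with MWCNT and 4.30 in control cells. NR4A3 differed by -2.01 ± 0.26 (5.99e-06). NR4A1 differed by -0.51 ± 0.07 (1.35e-05) and EGR3 by -1.18 ± 0.35 (0.016). The EGR3 call was lost without replicate 2 or 3 of the MWCNT arrays or replicate 3 of the TiO2-NB arrays (adjusted p = 0.0543, 0.0585 and 0.0512). The other 17 alternatives kept it. The compared EGR3 arrays did not overlap, at 5.80 to 6.29 with MWCNT and 7.06 to 7.25 with TiO2-NB. The error in the leave-out fits comes from arrays of both times. EGR1 differed by -0.20 ± 0.27, with an adjusted p of 0.629. This comparison and that with control share the TiO2-NB arrays. At 10 µg/ml and 24 h, 0 of 5 members and 0.00995% of all genes were called, and no member had an unadjusted p under 0.05.

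**Figure D2:**
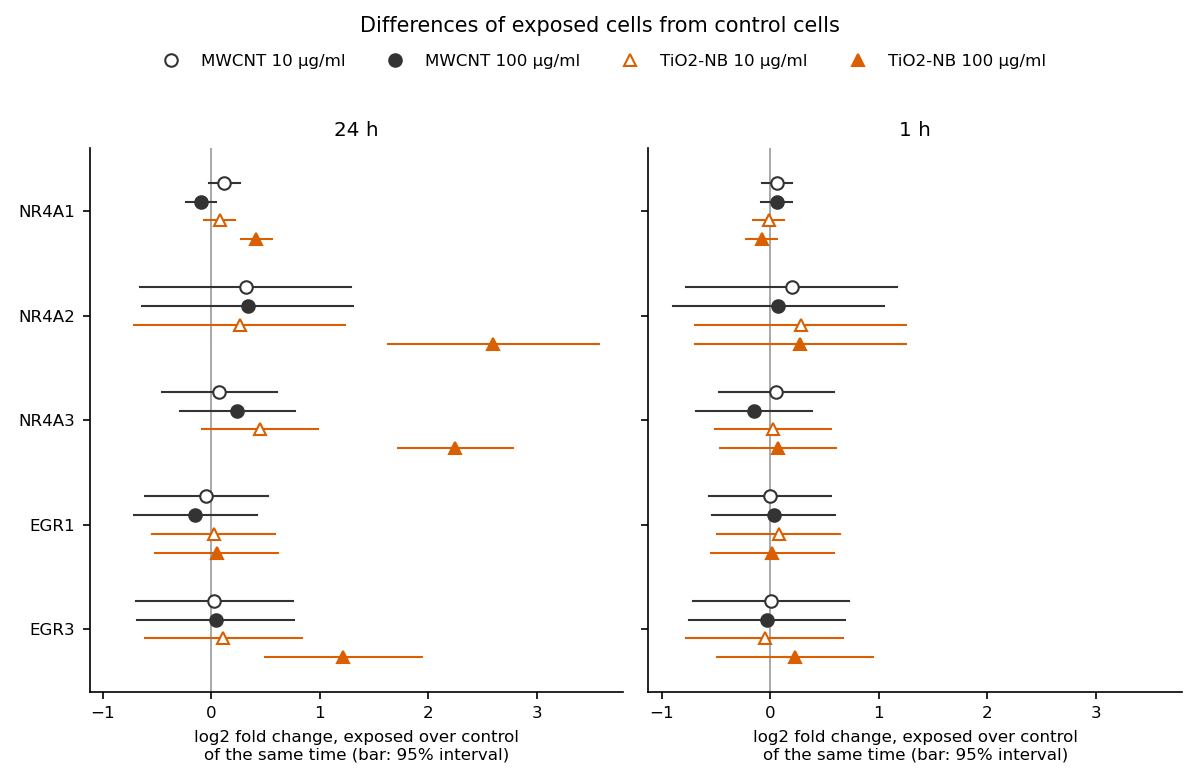
Log2 fold change of each exposed group over the control of the same time (horizontal axis) for the 5 genes, at 24 h on the left and 1 h on the right, with 95% intervals from limma. With 100 µg/ml TiO2-NB at 24 h the intervals of NR4A1, NR4A2, NR4A3 and EGR3 lie above 0, and every other interval includes 0.

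After 1 h of exposure, 0 of the 5 members was called in any comparison with control, and 0 had an unadjusted p under 0.05. Of all genes, limma called 0% with 10 µg/ml MWCNT, 0% with 100 µg/ml MWCNT, 0% with 10 µg/ml TiO2-NB and 1.15% with 100 µg/ml TiO2-NB. At an unadjusted p under 0.05 there were 162 genes with 10 µg/ml MWCNT, 293 with 100 µg/ml MWCNT and 213 with 10 µg/ml TiO2-NB. The largest of the 20 member differences, that of NR4A2 with 10 µg/ml TiO2-NB, was 0.28 ± 0.47 with a 95% interval of -0.69 to 1.25. EGR1 had 10.74, 10.28 and 11.29 with 100 µg/ml TiO2-NB, against 10.70, 10.25 and 11.29 in control cells. These arrays ran closely side by side, and the difference was 0.02 ± 0.27.
Equally numbered arrays deviated together at 1 h in 4 of the 5 groups, all but 10 µg/ml TiO2-NB: over all tested genes their 18 pairs correlated at 0.33 to 0.73. Replicate 3 with 10 µg/ml TiO2-NB correlated with replicate 3 of the other groups at 0.38 to 0.45. Its replicates 1 and 2 correlated with their equally numbered arrays at -0.48 to -0.32. The fit of all arrays counts such shared deviations as error. Between equally numbered arrays, 100 µg/ml TiO2-NB minus control at 1 h was 0.40, 0.16 and 0.27 for NR4A2 and 0.31, 0.13 and 0.24 for EGR3. All 6 of these differences were above 0. In a fit of these 4 groups with the replicate number as a block, chosen after seeing the data, NR4A2 was at 0.28 ± 0.09 (limma, adjusted p = 0.0885) and EGR3 at 0.23 ± 0.10 (0.179). That fit called 0 of 5 members and 966 of all genes for 100 µg/ml TiO2-NB, against 116 in the fit of all arrays without the block, so that a small early change of these genes was not shown to be absent.

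Between the materials at 1 h, 0 of 5 members was called at 10 µg/ml (0% of all genes by limma) and 0 at 100 µg/ml (1.42%). For 100 against 10 µg/ml at 1 h, 0 of 5 was called within MWCNT (0%) and 0 within TiO2-NB (0.0796%). No member had an unadjusted p under 0.05 in these 4 comparisons. Across all genes 264 had such a p between the materials at 10 µg/ml and 292 between the MWCNT doses.

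The 1 h groups were wide in 4 of the 5 genes. The SD of a group at 24 h was 0.13 to 0.28 for NR4A2, 0.06 to 0.20 for EGR1, 0.09 to 0.28 for EGR3 and 0.04 to 0.47 for NR4A3. At 1 h it was 0.72 to 0.98 for NR4A2, 0.43 to 0.52 for EGR1, 0.59 to 0.68 for EGR3 and 0.34 to 0.48 for NR4A3. NR4A1 was narrow at both times, with 0.03 to 0.12 at 24 h and 0.04 to 0.10 at 1 h. The residual SD over all groups was larger for NR4A2 than for 99.9% of tested genes, for EGR3 than for 99.5%, for EGR1 than for 98.5% and for NR4A3 than for 98.1%, against 13.2% for NR4A1.

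This spread had a pattern. In the 1 h control group the levels of replicates 1, 2 and 3 were 6.97, 8.25 and 6.75 for NR4A2, and 10.70, 10.25 and 11.29 for EGR1. The array highest in NR4A2 was thus the lowest in EGR1, and the array lowest in NR4A2 was the highest in EGR1. EGR3, at 5.92, 5.67 and 6.84, followed the order of EGR1. The same held in the other 1 h groups: the array with the highest NR4A2 had the lowest EGR1 and EGR3 in all 5. That array was replicate 1 with 10 µg/ml TiO2-NB and replicate 2 in the other 4 groups. Replicate 3 was highest in EGR1, EGR3 and NR4A3 and lowest in NR4A2 in all 5 groups. Over the 15 arrays at 24 h, deviations from the group means correlated at 0.49 between EGR1 and EGR3 and at -0.47 between NR4A2 and EGR1. Over the 15 arrays at 1 h, they correlated at 0.98 between EGR1 and EGR3, at -0.94 between NR4A2 and EGR1, at -0.88 between NR4A2 and EGR3 and at 0.58 between NR4A3 and EGR3. Since equally numbered arrays deviated together at 1 h, these 15 arrays and 5 groups are not independent repeats of the pattern. Values that share an array also share its RNA and its normalization, and what the arrays of a number shared was not tested.

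**Figure D3:**
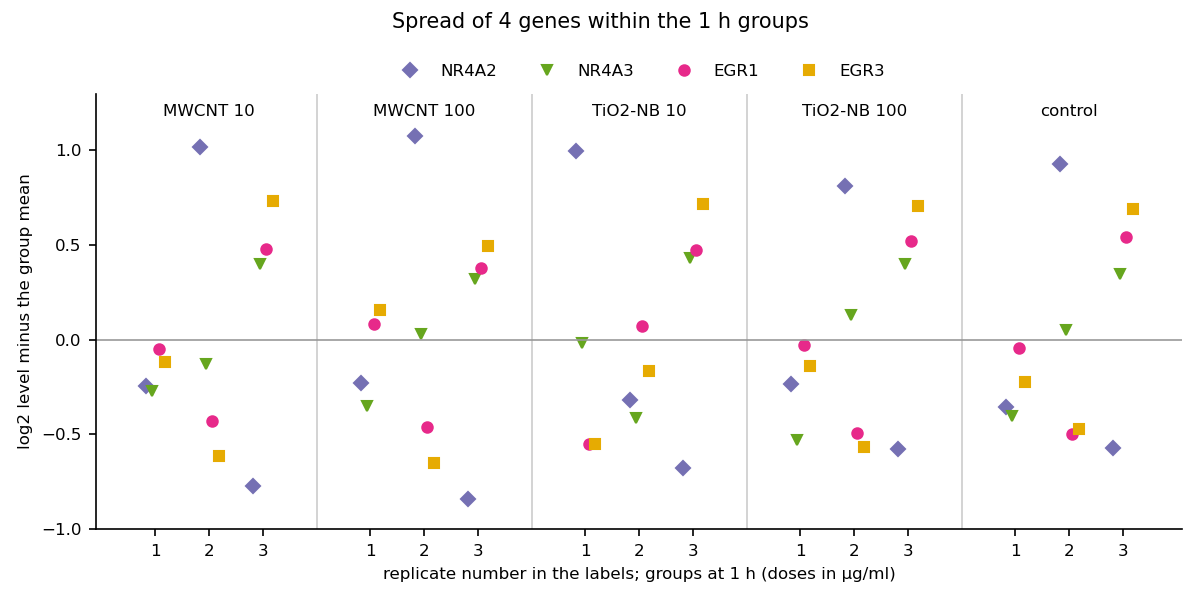
Deviation of NR4A2, NR4A3, EGR1 and EGR3 from their group mean (log2, vertical axis) on each of the 15 arrays at 1 h, by group and by replicate number in the labels. NR4A2 and the EGR genes lie on opposite sides of 0 on the arrays where NR4A2 deviates most, replicate 2 in 4 groups and replicate 1 with 10 µg/ml TiO2-NB.

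The members also differed between the times without particles. In control cells at 24 h, set against control cells at 1 h, NR4A2 and NR4A3 were lower, as was NR4A1 by 1 of its 3 probe sets, EGR1 was higher and EGR3 did not pass the test. That is 4 of 5 members called against 36.9% of all genes, 3 of them lower against 16.1% called lower. NR4A2 had 4.42, 4.13 and 4.33 in control cells at 24 h, against 6.97, 8.25 and 6.75 at 1 h, a fitted difference of -3.03 ± 0.47 (limma, adjusted p = 1.52e-05). With the dim late values raised as above, its level at 1 h was 5.55-fold as high by 1 probe set. NR4A3 had 5.97, 5.88 and 6.16 at 24 h, against 6.74, 7.20 and 7.49 at 1 h, a difference of -1.14 ± 0.26 (limma, adjusted p = 0.00103). Neither receptor had overlapping arrays between the times. NR4A1 differed by -0.25 ± 0.07 (limma, adjusted p = 0.00612). Its other probe sets did not pass, with 0.12 ± 0.09 for 210226_at (adjusted p = 0.338) and -0.17 ± 0.08 for 211143_x_at (0.119). The call was lost with the mean of its probe sets (-0.10, adjusted p = 0.227) and in a fit of the groups compared alone (adjusted p = 0.0636).

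EGR1 ran the other way, with 11.71, 11.77 and 11.41 in control cells at 24 h, against 10.70, 10.25 and 11.29 at 1 h. All 3 late arrays lay above the early ones, and the difference was 0.88 ± 0.27 (limma, adjusted p = 0.0131). The call was lost without replicate 2 of the 1 h control (0.63, adjusted p = 0.101). EGR3 had 5.88, 6.10 and 5.81 at 24 h, against 5.92, 5.67 and 6.84 at 1 h, a difference of -0.22 ± 0.35 (limma, adjusted p = 0.688). The 1 h cells had been washed, scraped and plated again 1 h before. Time after plating, time in culture and time since the PMA treatment thus cannot be told apart. The mean of the macrophage and monocyte markers was 9.86 to 9.93 in control cells at 24 h, against 9.29 to 9.37 at 1 h, with 7 of 10 higher and 1 lower, and its part in these differences was not tested.

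The order of the 10 group means differed from gene to gene. NR4A3 was highest with 100 µg/ml TiO2-NB at 24 h (8.26 ± 0.04), apart from the 1 h groups (means of 6.99 to 7.21) and from the other late groups (6.45 or less), and each of these 2 steps was free of overlap between the neighbours. NR4A2 had the 5 groups at 1 h on top (7.32 to 7.60), then 100 µg/ml TiO2-NB at 24 h (6.90 ± 0.16), which overlapped its neighbour. A gap then followed to the other 24 h groups (4.30 to 4.63), all of them dim. EGR1 had the 5 groups at 24 h on top (11.48 to 11.68) and the 5 at 1 h below (10.75 to 10.83), with no overlap between the neighbours at that step. In EGR3 and NR4A1, 100 µg/ml TiO2-NB at 24 h was highest (7.15 ± 0.10 and 7.18 ± 0.12), and every pair of neighbours in the order overlapped.

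Set against all 15 arrays at 1 h, the late TiO2-NB level at 100 µg/ml differed by gene. NR4A3 averaged 8.26 with TiO2-NB at 24 h, against 7.14 over the 1 h arrays, and 3 of 3 arrays exceeded every 1 h array. EGR3 averaged 7.15 against 6.18, and 2 of 3 arrays did. NR4A2 averaged 6.90 against 7.49, and 0 of 3 did. NR4A1 averaged 7.18 against 7.02, and 1 of 3 did. EGR1 averaged 11.68 against 10.78, and 3 of 3 did. For EGR1 this held for every 24 h array of every group, control included, with a lowest level of 11.40 against a highest of 11.30 at 1 h. These are descriptions, with no test.

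Whether the response to particles differed between the times was tested as the difference from control at 24 h minus that at 1 h. With 100 µg/ml TiO2-NB, 3 of 5 members were called, all higher at 24 h, against 16.3% of all genes called and 7.49% called higher. This difference of differences was 2.32 ± 0.67 for NR4A2 (limma, adjusted p = 0.0195), 2.18 ± 0.36 for NR4A3 (0.000282) and 0.49 ± 0.10 for NR4A1 (0.00144). EGR3, at 0.99 ± 0.49, did not pass (0.172), and EGR1 was at 0.03 ± 0.39. With the dim control values raised as above, the difference of NR4A2 was 1.77 by 1 probe set. Its probe set 204621_s_at did not pass (1.65 ± 0.64, limma, adjusted p = 0.0824). The call of NR4A2 was lost without replicate 2 of the 1 h control (1.86, adjusted p = 0.0596) or replicate 3 of the 1 h TiO2-NB group (2.04, adjusted p = 0.0557). For 100 µg/ml MWCNT 0 of 5 members and 3.71% of all genes were called. At 10 µg/ml 0 of 5 members were called with either material, against 0% of all genes with MWCNT and 0% with TiO2-NB by limma, and 408 and 256 genes had an unadjusted p under 0.05. No member had an unadjusted p under 0.05 in these 3 comparisons.

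Probe sets of 1 gene differed in size, and for NR4A1 in their calls. For TiO2-NB at 100 µg/ml against control at 24 h, the other 2 probe sets of NR4A2 differed by 1.95 ± 0.45 (204621_s_at) and 2.44 ± 0.49 (216248_s_at), and the other kept one of NR4A3 by 1.68 ± 0.19 (207978_s_at). All of these passed the test in a limma fit of every kept probe set, with adjusted p of 0.0027, 0.000743 and 5.62e-07. In MWCNT against TiO2-NB at this dose and time, 204621_s_at was at -1.33 ± 0.45 (adjusted p = 0.035), a smaller difference than the -2.26 of 204622_x_at, which stood for NR4A2. The suffix of 204622_x_at marks probes able to bind other transcripts too. For TiO2-NB at 100 µg/ml against control at 24 h, the second probe set of EGR1, 201693_s_at, was at -0.04 ± 0.34 and did not pass the test.

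Of the 3 probe sets of NR4A1, 1 was called for TiO2-NB at 100 µg/ml against control at 24 h. The one that stood for the gene, 202340_x_at, has the same suffix. Probe set 210226_at had 6.94, 7.09 and 6.91 with TiO2-NB, against 7.07, 6.84 and 7.02 in control cells, a difference of 0.00 ± 0.09 (limma, adjusted p = 0.983). Its groups overlapped throughout. Probe set 211143_x_at differed by 0.12 ± 0.08 (adjusted p = 0.353). The mean of the 3 gave 0.18 ± 0.06 (limma, adjusted p = 0.0395), less than the 0.41 of the representative probe set. In MWCNT against TiO2-NB at 100 µg/ml and 24 h, 211143_x_at was lower with MWCNT too (-0.38 ± 0.08, adjusted p = 0.0024), while 210226_at was at -0.04 ± 0.09. The third NR4A3 probe set, 216979_at, lay between the 10.3 and 14.6 percentile of its arrays, passed the filter on 0 of 30 arrays and was not tested.

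**Figure D4:**
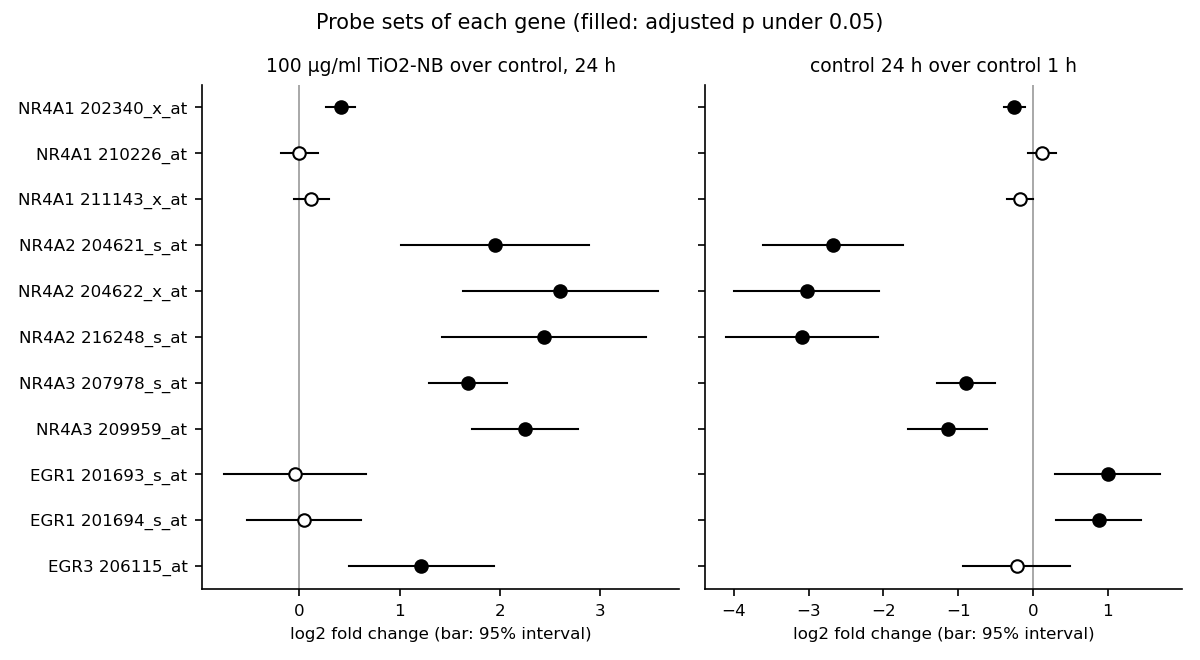
Log2 fold change with 95% interval (horizontal axis) of the 11 kept probe sets, for 100 µg/ml TiO2-NB over control at 24 h on the left and control at 24 h over control at 1 h on the right. All kept probe sets of NR4A2 and NR4A3 lie on the same side of 0 in each panel, by unequal amounts. Those of NR4A1 lie at or above 0 on the left and on both sides of 0 on the right.

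Of 34 other immediate early genes listed, 31 were measured, and with 100 µg/ml TiO2-NB at 24 h 13 were higher and 2 lower than in control cells, with a median log2 fold change of 0.26 against 0.01 over all genes. Of all genes 22.1% were called in that comparison. PTGS2, the inducible prostaglandin synthase, rose by 2.38 ± 0.18, GADD45B, a stress-induced growth arrest protein, by 1.50 ± 0.32, the stress factor ATF3 by 1.35 ± 0.15 and CCN2, a matrix-associated growth factor, by 1.28 ± 0.36 (limma, adjusted p = 8.21e-10, 0.00134, 3.63e-07 and 0.0121). FOS, the classical immediate early gene, was at -0.14 ± 0.16 (adjusted p = 0.597), and is named after its value was seen. The same 31 genes had 4 higher and 1 lower with 100 µg/ml MWCNT, beside 13% of all genes called. Their median was 0.10 against -0.01 over all genes. With MWCNT PTGS2 rose by 0.96 ± 0.18, the growth regulator MYC by 0.59 ± 0.14 and IER5 by 0.51 ± 0.07, and the kinase PLK2 fell by 1.23 on the log2 scale. MWCNT against TiO2-NB at this dose and time gave 3 higher and 14 lower, with a median of -0.29, beside 24.9% of all genes called. After 1 h of 100 µg/ml TiO2-NB, 0 of the 31 were called by limma, beside 1.15% of all genes.

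Between the control times, 6 of these 31 genes were higher at 24 h and 10 lower, with a median of -0.10, beside 36.9% of all genes called. The endothelial and monocyte quiescence factor KLF2 differed by -3.76 ± 0.25, CCN2 by -2.71 ± 0.36, FOSB, an AP-1 subunit, by -1.80 ± 0.23 and GADD45B by -1.77 ± 0.32 (limma, adjusted p = 2.05e-11, 1.99e-06, 1.29e-06 and 0.000101). CCN2 and GADD45B, like NR4A2 and NR4A3, were thus lower at 24 h than at 1 h in control cells and higher with 100 µg/ml TiO2-NB than in control cells at 24 h. Both comparisons share the 24 h control arrays.

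**Figure D5:**
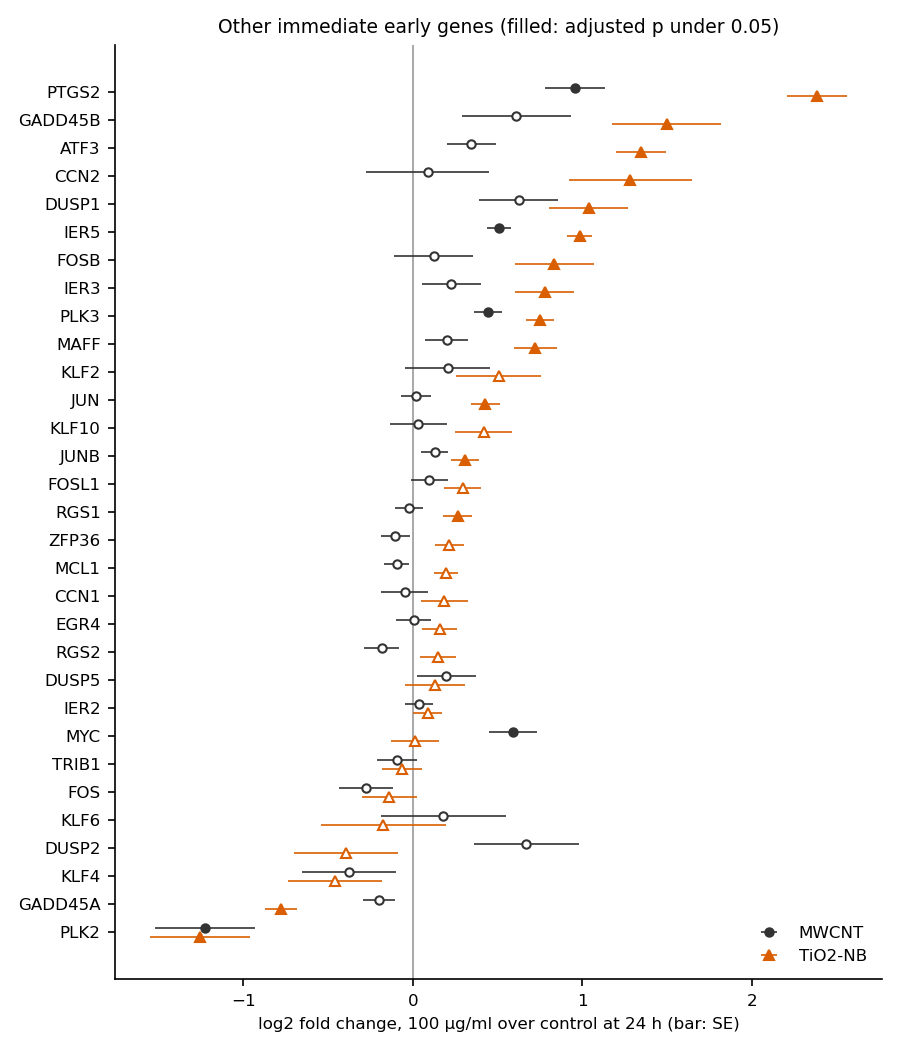
Log2 fold change with its standard error (horizontal axis) of the 31 other immediate early genes at 24 h, with 100 µg/ml MWCNT (circles) or TiO2-NB (triangles) over control, ordered by the TiO2-NB value. Filled symbols passed the test: 15 with TiO2-NB, 13 of them to the right of 0, and 5 with MWCNT, 4 of them to the right.

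Of 28 listed factors that act upstream of NR4A and EGR transcription, 24 were measured, and with 100 µg/ml TiO2-NB at 24 h 3 were higher and 3 lower, with a median of 0.03 against 0.01 over all genes. The share called over all genes was 22.1% there, 13% with 100 µg/ml MWCNT and 36.9% between the control times. With both materials the share of this list was close to that of all genes. The NF-kappaB subunits RELA (0.63 ± 0.08) and NFKB1 (0.58 ± 0.12) were higher, and the coactivator EP300 (-1.02 ± 0.26) and the factor MEF2C (-0.85 ± 0.07) were lower. Among these factors 1 was higher and 2 lower with 100 µg/ml MWCNT: NFKB1 at 0.44 ± 0.12, the protein kinase C gene PRKCA at -0.43 ± 0.11 and ELK3, an ETS partner of the serum response factor, at -0.35 ± 0.12. Between control cells at 24 h and at 1 h, 7 were higher at 24 h and 4 lower, among them PRKCA (0.49 ± 0.11), MRTFB, a coactivator of the serum response factor (0.49 ± 0.13), NFATC1 (-0.54 ± 0.12) and CREB1 (-0.42 ± 0.08). Arrays measure transcripts only, and the activity of these factors was not measured.

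Partners and corepressors had 9 of 13 measured. Their counts stand beside 22.1% of all genes called with TiO2-NB, 13% with MWCNT and 36.9% between the control times. Called with 100 µg/ml TiO2-NB at 24 h were 1 higher gene, RXRB (0.29 ± 0.07), and 2 lower ones, the kinase HIPK2 (-1.23 ± 0.23) and RXRA (-0.37 ± 0.09), both RXR proteins being dimer partners of NR4A1 and NR4A2. MWCNT at 100 µg/ml gave 0 higher and 2 lower, RXRA (-0.42 ± 0.09) and the glucocorticoid receptor gene NR3C1 (-0.27 ± 0.07). Of the 9, limma called 0 between the control times. NAB1 and NAB2, the corepressors that bind EGR proteins, were at 0.17 ± 0.09 and -0.05 ± 0.10 with TiO2-NB and did not pass, and are named after their values were seen.

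Genes reported elsewhere as targets were described in the same way, beside the same shares of all genes (22.1%, 13% and 36.9%). Of 20 reported EGR1 targets 16 were measured, and with 100 µg/ml TiO2-NB at 24 h 5 were higher and 2 lower, with a median of 0.24. The macrophage growth factor CSF1 rose by 1.62 ± 0.18, the chemokine CCL2 by 1.54 ± 0.22, the cytokine TNF by 1.48 ± 0.21 and the adhesion receptor ICAM1 by 0.90 ± 0.11, while EGR1 itself did not pass the test. The list also had 5 higher and 2 lower with 100 µg/ml MWCNT, with CCL2 at 1.06 ± 0.22, TNF at 0.65 ± 0.21, ICAM1 at 0.65 ± 0.11 and the lipoxygenase ALOX5 at -1.46 ± 0.36. The control time comparison, 24 h against 1 h, had 7 higher and 3 lower, led by ALOX5 (2.12 ± 0.36), the tissue factor gene F3 (1.40 ± 0.35), fibronectin FN1 (1.39 ± 0.45) and urokinase PLAU (1.20 ± 0.17).

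Of 17 reported NR4A targets 16 were measured, and with 100 µg/ml TiO2-NB at 24 h 3 were higher and 2 lower, with a median of 0.08. The neutrophil chemokine CXCL8 rose by 0.93 ± 0.11 and the NF-kappaB inhibitor NFKBIA by 0.71 ± 0.16, whereas the chemokine receptor CX3CR1 was at -1.22 ± 0.31 and the collagenase MMP1 at -0.90 ± 0.22. MWCNT at 100 µg/ml gave 4 higher and 2 lower, with the adhesion receptor VCAM1 at 2.31 ± 0.25, NFKBIA at 0.61 ± 0.16, MMP1 at -0.71 ± 0.22 and TXNIP, a regulator of thioredoxin, at -0.58 ± 0.16. The control time comparison had 6 higher and 3 lower, led by KLF2, MMP1 (1.82 ± 0.22), VCAM1 (1.57 ± 0.25) and the chemokine receptor CCR2 (-1.17 ± 0.25). The shares called in these lists stand beside 22.1% of all genes for TiO2-NB, 13% for MWCNT and 36.9% for time.

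Genes with the most similar pattern were taken as the 3 with the highest Pearson correlation over the 10 group means, among 10045 tested genes outside the members. For NR4A2 these were SPTBN1 (0.995), MAML1 (0.995) and RIT1 (0.994), for NR4A3 IFRD1 (0.989), ATP6V1C1 (0.980) and ESPL1 (0.980), and for NR4A1 BAG3 (0.939), YIPF4 (0.931) and ATP6V0C (0.931). For EGR1 they were PLAUR (0.997), CHST15 (0.996) and STAT6 (0.996), and for EGR3 PPP2CA (0.987), SZRD1 (0.977) and MAD2L1BP (0.974). Over the 30 single arrays only IFRD1 and MAD2L1BP stayed in the top 3 of their member, and by Spearman correlation over the group means 0 of the 3 stayed for any member. By Pearson correlation over the 30 single arrays, the closest gene was ATF3 for NR4A2 (0.975), ATF4 for NR4A3 (0.932), MAD2L1BP for EGR3 (0.919), TRIM13 for EGR1 (0.962) and IRF5 for NR4A1 (0.863). Group means of 10 groups that share a time or a control are few points, and these likenesses are descriptions. Among the members, the group means correlated at 0.87 between NR4A3 and EGR3, at 0.86 between NR4A1 and NR4A3 and at -0.84 between NR4A2 and EGR1.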

How the data were processed

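RNA of 30 THP-1 samples was hybridised to Affymetrix 3-prime expression arrays. The authors deposited log2 intensities, 1 value per probe set, made with RMA (named in the submitters' processing notes without a version). These values were not normalized again. Of 22277 probe sets, 62 were controls, 19064 matched 1 gene, 1043 several and 2108 none; only those of 1 gene were used. Arrays give no depth, and their number limits the precision. Testing used limma 3.58.1 under R 4.3.3: 10 group means were fitted to 30 arrays (20 residual degrees of freedom), two-sided, with Benjamini-Hochberg adjustment over 10050 genes within each comparison and a threshold of 0.05. The script was tested on simulated data. Replicate numbers did not pair the arrays throughout: of 60 equally numbered pairs, deviations correlated above 0.1 in 38 and below 0 in 21, from -0.53 to 0.73. The members and the 5 lists of other genes were chosen with earlier results of these data known. Named genes were all members, up to 4 called genes per list with the largest change in the 100 µg/ml comparisons at 24 h and in the control time comparison, and 3 genes per member by likeness; others are said to be so. Alternatives covered scaling, filters, probe set choice, replicate block, array weights, the arrays fitted and leaving out each array. Promoters came from RefSeq (GRCh38.p14).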

Additional observations from a re-analysis of the deposited data

Results flagged for a closer look

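The response to 100 µg/ml TiO2-NB differed between 24 h and 1 h in 3 of the 5 genes by the test of the difference itself. The difference from control at 24 h minus that at 1 h was 0.49 on the log2 scale for NR4A1 (limma, adjusted p = 0.00144), 2.32 for NR4A2 (0.0195) and 2.18 for NR4A3 (0.000282). For NR4A1 this rests on 1 of 3 probe sets, 202340_x_at: 210226_at was at 0.00 and 211143_x_at at 0.30 (limma, adjusted p = 0.988 and 0.0882). For NR4A2, 216248_s_at was called (2.20, adjusted p = 0.0332) and 204621_s_at was not (1.65, adjusted p = 0.0824).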

How the results depend on the processing

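Of 105 values, 5 genes in 21 comparisons, 19 were called. Of these, 13 kept their call and direction under every alternative run and 6 lost the call in at least 1. The 6 were EGR3 (TiO2-NB dose, and MWCNT against TiO2-NB, at 24 h), NR4A1 (TiO2-NB dose, and control time), EGR1 (control time) and NR4A2 (TiO2-NB response by time), with the values given in the report. No called value changed sign. Against control at 24 h, 100 µg/ml TiO2-NB gave 4 called members under all 20 alternatives. None of these alternatives tested NR4A1 through 210226_at or 211143_x_at alone, so the calls kept do not cover that choice. In that comparison these probe sets were at 0.00 and 0.12 and did not pass (limma, adjusted p = 0.983 and 0.353). With array weights, 1 member was called for MWCNT at 100 against 10 µg/ml at 24 h, NR4A1 (-0.19, adjusted p = 0.0156), in place of 0. The number over all genes moved more. For 100 µg/ml TiO2-NB against control at 24 h it was 1304 with the groups compared alone and 3377 with every probe set, against 2219. For 100 µg/ml MWCNT it was 2096 with array weights and 778 without replicate 1 of the control, against 1309. For the materials at 100 µg/ml and 24 h it was 3781 with array weights, against 2505. For the TiO2-NB doses at 24 h it was 710 with the groups compared alone and 874 without replicate 2 at 10 µg/ml, against 1355. For the MWCNT doses at 24 h it ran from 197 to 1646, against 469. For the TiO2-NB response by time it was 1019 with the groups compared alone and 1077 without replicate 2 of the 24 h control, against 1642, and for MWCNT 152 to 871, against 373. At 1 h it ran from 0 to 966 for 100 µg/ml TiO2-NB, against 116, from 0 to 582 between the materials at 100 µg/ml, against 143, and from 0 to 90 between the TiO2-NB doses, against 8. At 10 µg/ml and 24 h it ran from 0 to 1 with MWCNT, against 0, from 0 to 15 with TiO2-NB, against 2, and from 0 to 194 between the materials, against 1. The cause of these moves was not tested.

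The replicate block changed no call of a member. For 100 µg/ml TiO2-NB against control at 24 h, the standard error with the replicate block was 0.43 for NR4A2, 0.22 for NR4A3 and 0.30 for EGR3 (limma, adjusted p = 0.000123, 1.67e-07 and 0.00439). A replicate block on the arrays of each time alone, chosen after seeing the data, gave 4.93e-07, 2.38e-05 and 3.75e-05. Both blocks assume that equally numbered arrays share a deviation, and the first assumes the same one at both times. At 24 h, deviations of equally numbered control and 100 µg/ml TiO2-NB arrays correlated at -0.48, -0.06 and -0.42 over all tested genes. These fits thus rest on an assumption that the compared arrays did not meet.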
